A study of Sus scrofa with 8 samples.

Results

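The TGF-beta ligands, receptors and SMADs were followed in the testes of 8 boars. The list held 9 genes: the ligands TGFB1, TGFB2 and TGFB3, the receptors TGFBR1, TGFBR3 and BMPR1B, and the SMADs SMAD2, SMAD3 and SMAD4. A probe was taken if its RefSeq accession, or the gene name in the study's annotated probe list, gave one of these symbols. This found 10 probes for 7 of the 9 genes, of 43603 probes on the array. TGFB2 and SMAD2 had no such probe and were not analysed here. All 10 probes were named by their accession, and none is in the annotated probe list, which the study drew up from the diet comparison of these same boars.

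Each testis RNA was labelled with a single dye (Cy3) and hybridized to 1 porcine Agilent array. The Large White boars m_9597, m_9599, m_9499 and m_9527 were fed a diet enriched in methionine, choline, betaine, vitamin B6, vitamin B12 and folate from month 1 to month 10 of age, while a control diet over the same months went to m_9598, m_9600, m_9502 and m_9528. These nutrients feed the supply of methyl groups, and the comparison asks whether such a diet changed gene expression in the testis. The boars m_9597 to m_9600 are 4 full brothers and shared 1 slide, while the other 4 boars, which come from more than 1 further litter, shared the second, with 2 boars per diet on each. This litter and the slide can therefore not be told apart. The same holds for diet and place on the slide, since the supplemented boars took places 1 and 3 and the control boars places 2 and 4 on both slides.

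TGF-beta ligands are secreted in a latent form, are freed outside the cell and bind pairs of type I and type II receptor kinases. The type I receptor phosphorylates receptor-regulated SMADs, which join the common partner SMAD4 and enter the nucleus, where they switch target genes on or off. In the testis, the ligands of this family act between Sertoli cells, Leydig cells, peritubular cells and germ cells.

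The median spot signal lay between 108 and 192.5 over the 8 arrays, which was 4.91 to 7.40 times the median local background, and 76.3% to 86.5% of the spots were well above background. Markers of the testis were read on all arrays: all 11 Sertoli cell probes and all 5 spermatid probes, among them the protamines PRM1 and PRM2, were well above background in each boar, as were 13 of 14 Leydig cell probes. Of the Leydig cell probes, 1 of 14 had a higher mean on the supplemented diet (median log2 difference -0.16). These are whole-tissue samples, so fewer cells of a type and less RNA per cell cannot be told apart. Macrophage markers (AIF1, C1QA, CD14 and CD163) had higher means on the supplemented diet for 7 of 7 present probes (median log2 difference 0.45). Their summed signal was 2235 to 4340 in the supplemented and 1494 to 4051 in the control boars. The differences were larger in the 4 boars outside the litter of brothers, where all 7 were at least 0.375. In the brothers alone these differences ran from -0.28 to 0.07, and only CD163 A_72_P170001 lay above 0. Whether the diet difference was unequal between the brothers and the others was tested as an interaction in limma. The smallest interaction P of these probes was 0.0304, for C1QA A_72_P165561, and none passed Benjamini-Hochberg adjustment. Duct epithelium markers, from CDH1 and EPCAM alone, had lower means on the supplemented diet for 5 of 5 present probes (median log2 difference -0.95). Their sums were 1962 to 13411 in the supplemented and 4528 to 20010 in the control boars. The CDH1 probe A_72_P164631 was well above background in 0 of 4 supplemented and 2 of 4 control boars. It thus counted as present only through the diet where it was higher. No marker probe had a limma P under 0.05 for the diet difference over the 8 boars, and the part of other cell types in the values below was not tested.

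For no ligand, receptor or SMAD probe of the list did the diet difference pass the test against the spread between boars. The number with a limma P under 0.05 was 0 of 10, where 1.86% of the 36982 probes present in the testes (689 probes) had one. After Benjamini-Hochberg adjustment it was again 0 of 10, with 0% of all present probes, and an ordinary equal-variance test on each probe also gave 0 adjusted P under 0.05 with 717 probes under 0.05 unadjusted. The limma P of the members ran from 0.0777 to 0.889 and their adjusted P from 0.840 to 0.974. The diets were fully separate, with no overlap between boars, in 0 of 10 probes and in 1.13% of all present probes (418 probes).

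Mean values were higher on the supplemented diet for the 3 genes TGFB1, TGFB3 and BMPR1B, with 1 probe each, and lower for the 7 probes of TGFBR1, TGFBR3, SMAD3 and SMAD4. The median size of the 10 differences was 0.36 on the log2 scale, against 0.17 over all present probes. Their boars also scattered more, with a median SD within a diet of 0.48 against 0.30 over all present probes. All values below are quantile-normalized log2 spot signals, and differences are the supplemented minus the control mean. The signal of 1 probe was not set against that of another, because probes bind with unequal strength.

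**Figure D1:**
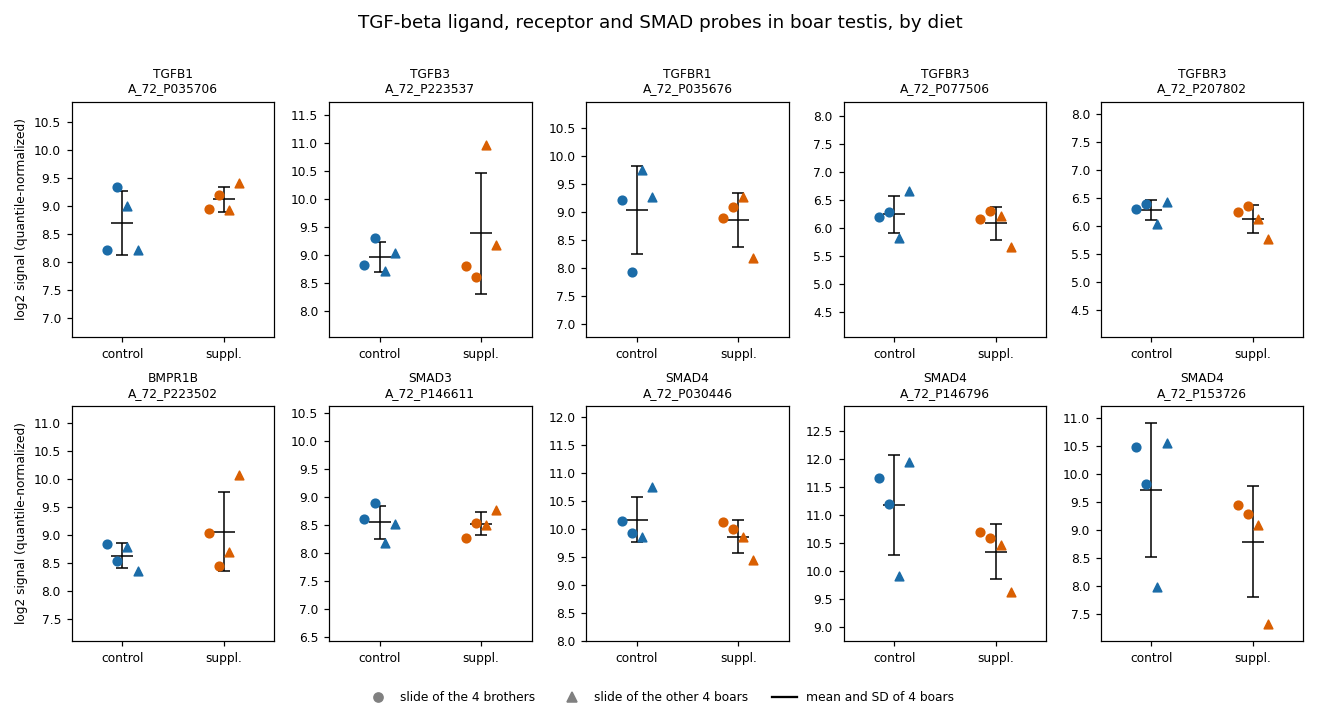
Quantile-normalized log2 signal of the 10 probes in each boar, control diet in blue and supplemented diet in orange, with circles for the slide of the 4 brothers, triangles for the slide of the other 4 boars, and lines for the mean and SD of 4 boars. The panels have their own offsets but span the same number of log2 units, and in every panel the boars of the diets overlap.

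TGFB1 encodes the ligand that gave the family its name. Its probe A_72_P035706 had log2 signals of 8.94, 9.19, 8.92 and 9.40 in the supplemented boars m_9597, m_9599, m_9499 and m_9527, and of 8.21, 9.34, 8.99 and 8.20 in the control boars m_9598, m_9600, m_9502 and m_9528. Those of the control diet thus split into a pair near 8.2 and a pair that lay within or next to the supplemented range. The means were 9.11 ± 0.23 (SD, n = 4) and 8.69 ± 0.57 (SD, n = 4), a difference of 0.43 (SE 0.27, 95% interval -0.18 to 1.04, limma's adjusted P = 0.840). With 1 boar left out the difference ran from 0.27 to 0.65 and its limma P from 0.0258 to 0.358. The lowest of these P-values and the largest difference were those without the control boar m_9600. The present macrophage probes had their lowest median, relative to the mean of the 8 boars, in m_9528 with -0.55, followed by m_9502 with -0.45 and m_9598 with -0.36, and their highest in m_9600 with 0.61 and m_9527 with 0.47. The boars m_9528 and m_9598 were the lowest in TGFB1, and m_9527 and m_9600 the highest. By contrast m_9502, also low in the macrophage probes, had a TGFB1 signal of 8.99, within the supplemented range. The part of macrophages in the TGFB1 values was not tested.

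TGFB3 encodes a second ligand of the same receptors. Its probe A_72_P223537 read 8.81, 8.61, 10.97 and 9.18 in the supplemented boars, in the order given for TGFB1, and 8.83, 9.31, 8.71 and 9.04 in the control boars. A single supplemented boar, m_9499, stood more than 1 log2 unit above all others, and the remaining 7 boars overlapped. The means were 9.39 ± 1.08 (SD, n = 4) and 8.97 ± 0.26 (SD, n = 4), which differed by 0.42 (SE 0.46, 95% interval -0.60 to 1.45, limma's adjusted P = 0.844). The sign rests on m_9499: without it the difference was -0.11. The Leydig cell probes had their highest median, relative to the mean of the 8 boars, in this boar with 0.89, followed by m_9598 with 0.32, and their part in the TGFB3 value was not tested. An SD over boars at least as large as that of this probe was found in 3.80% of all present probes.

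TGFBR1 is the type I receptor kinase for TGF-beta. Probe A_72_P035676 gave 8.89, 9.10, 9.28 and 8.18 on the supplemented diet, and 9.22, 7.93, 9.75 and 9.27 on the control diet. One boar of each diet, m_9527 and m_9600, was low, and the others lay between 8.89 and 9.75. The difference was -0.18 (SE 0.38, 95% interval -1.04 to 0.68, limma's adjusted P = 0.907). It was 0.05 without m_9502 and 0.05 without m_9527, so it had no settled sign.

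TGFBR3, or betaglycan, is a coreceptor that presents ligands to the signalling receptors. Probe A_72_P077506 read 6.16, 6.32, 6.23 and 5.67 in the supplemented and 6.20, 6.30, 5.84 and 6.66 in the control boars. Probe A_72_P207802 read 6.25, 6.36, 6.13 and 5.77 against 6.30, 6.40, 6.04 and 6.43. Both were lowest in m_9527, and the diets overlapped in both. The differences were -0.15 (SE 0.21, limma's adjusted P = 0.865) and -0.16 (SE 0.17, limma's adjusted P = 0.842). These were dim spots, at 1.58 to 4.43 and 2.15 to 3.96 times the local background. Fold changes of dim spots can be understated without background subtraction, and on the background-subtracted signal the differences were -0.29 and -0.26. Another background correction, normexp with an offset of 50, gave smaller differences, -0.10 and -0.097. The size thus changed with the correction used.

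BMPR1B is a type I receptor for bone morphogenetic proteins, the other large branch of the family. Its probe A_72_P223502 had values of 9.03, 8.44, 8.70 and 10.06 on the supplemented diet and 8.84, 8.54, 8.79 and 8.35 on the control diet. Again 1 supplemented boar stood apart, here m_9527, and the other 7 overlapped. The means were 9.06 ± 0.71 (SD, n = 4) and 8.63 ± 0.23 (SD, n = 4), a difference of 0.43 (SE 0.32, 95% interval -0.28 to 1.15, limma's adjusted P = 0.840). Without m_9527 it was 0.10. In m_9527 the Leydig cell probes had their lowest relative median, -0.74.

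SMAD3 is the receptor-regulated SMAD of the TGF-beta and activin branch. Probe A_72_P146611 read 8.28, 8.54, 8.50 and 8.78 in the supplemented boars and 8.62, 8.89, 8.18 and 8.52 in the control boars. The groups covered nearly the same range. Of the 10 probes, this one had the smallest difference, -0.03 (SE 0.19, 95% interval -0.44 to 0.39, limma's adjusted P = 0.974). The interval includes changes of up to 0.44 in size, so equal expression was not shown.

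SMAD4, the partner shared by all receptor-regulated SMADs, was read by 3 probes, and the largest differences of the list were found here. Probe A_72_P146796 had log2 signals of 10.69, 10.59, 10.45 and 9.61 on the supplemented diet and 11.66, 11.19, 9.91 and 11.94 on the control diet. The control boars m_9598, m_9600 and m_9528 lay above all supplemented boars, while m_9502 lay among them. The means were 10.34 ± 0.49 (SD, n = 4) and 11.17 ± 0.90 (SD, n = 4), which is 1.79-fold lower on the supplemented diet (log2 difference -0.84, SE 0.42, 95% interval -1.79 to 0.11). With a limma P of 0.0777 and an adjusted P of 0.840 it did not pass the test, although only 1.11% of all present probes had a difference of at least this size.

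Probe A_72_P153726 of SMAD4 read 9.45, 9.30, 9.10 and 7.33 in the supplemented and 10.49, 9.83, 7.98 and 10.56 in the control boars. The order of the boars was the same as for A_72_P146796, with m_9528 highest and m_9527 lowest, over a range of 3.23 log2 units. The difference was -0.92 (SE 0.63, 95% interval -2.33 to 0.49, limma's adjusted P = 0.840), or 1.89-fold. An SD over boars as large as this one was found in 0.698% of all present probes.

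The third SMAD4 probe, A_72_P030446, varied less. It read 10.12, 9.99, 9.85 and 9.44 on the supplemented diet, and 10.13, 9.93, 9.85 and 10.74 on the control diet. Here 3 boars of each diet had nearly equal values, while m_9527 was lowest and m_9528 highest. The difference was -0.31 (SE 0.23, 95% interval -0.83 to 0.21, limma's adjusted P = 0.840). The probes of SMAD4 thus had the same sign and unequal sizes.

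The unadjusted limma P of SMAD4 changed with the boar left out. It reached 0.205 for A_72_P146796 and 0.461 for A_72_P153726 at most, and was lowest without the control boar m_9502. Without m_9502 the difference of A_72_P146796 was -1.26 with a limma P of 0.00197, and that of A_72_P153726 was -1.50 with a P of 0.0130. At this setting 6155 of all present probes had a P under 0.05, so a low P was common over the array. Limma's array weights gave m_9502 the lowest weight, 0.316. With these weights 3 member probes had a P under 0.05, namely both of these SMAD4 probes and TGFB1 at a P between 0.00454 and 0.0291, together with 5830 of all present probes. Their adjusted P was 0.279 to 0.290.

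**Figure D2:**
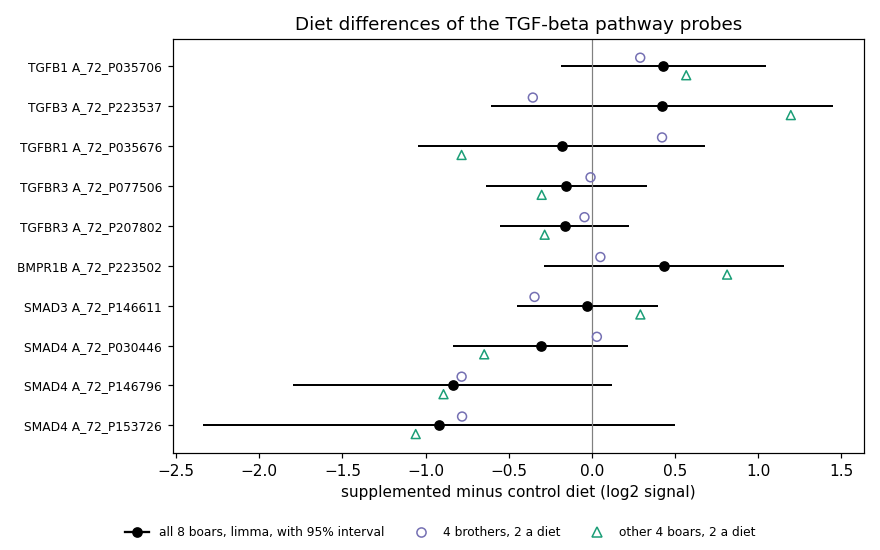
Difference of the supplemented minus the control diet in log2 signal for each probe. Filled points with lines are the limma value over 8 boars and its 95% interval, circles are the 4 brothers alone and triangles the other 4 boars alone. Every interval crosses 0, and the circle and the triangle fall on opposite sides of 0 for TGFB3, TGFBR1, SMAD3 and the SMAD4 probe A_72_P030446.

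Taken apart, the litter of brothers and the remaining boars gave a diet difference of the same sign for 6 of 10 probes, where 61.1% of all present probes had the same sign in both. The SMAD4 probe A_72_P146796 differed by -0.78 in the brothers and by -0.89 in the other boars, and A_72_P153726 by -0.78 and -1.06. TGFB1 differed by 0.29 and 0.57. BMPR1B, by contrast, differed by 0.05 in the brothers and by 0.81 in the others, and TGFB3 by -0.36 and 1.20.

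Whether the diet difference was unequal between the brothers and the other boars was tested as an interaction in limma. None of the 10 probes had an interaction P under 0.05, where 2% of all present probes (738 probes) had one, and the smallest P, 0.0775, was that of TGFB3 (-1.55, SE 0.75, limma's adjusted P = 1). Between the brothers and the other boars themselves 0 of 10 probes had a P under 0.05 with diet in the model, where 8.11% of all present probes had one, and 0% after adjustment. The smallest member P of this comparison was 0.111 (adjusted P = 0.651). With the brothers and their slide against the other boars as a block in the diet comparison, the smallest member P was 0.0740, for SMAD4 A_72_P146796, with an adjusted P of 0.797.

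Probes of the same gene followed each other across the boars. The SMAD4 probes A_72_P146796 and A_72_P153726 had a Pearson r of 0.974 over 8 boars and a Spearman rho of 1, each with an exact two-sided permutation p of 4.96e-05, the smallest these permutations can give (0.000198 after Benjamini-Hochberg adjustment over 4 pairs). SMAD4 A_72_P030446 had r = 0.853 with the first of these (exact permutation p = 0.00258, adjusted 0.00258) and r = 0.827 with the second (exact permutation p = 0.00238, adjusted 0.00258), each with a rho of 0.905 (exact permutation p = 0.00456, adjusted 0.00456). The TGFBR3 probes gave r = 0.912 (exact permutation p = 0.000744, adjusted 0.00149) and rho = 0.905. Without the 2 boars farthest from the median, r was 0.977, 0.654, 0.704 and 0.832 in the order of these pairs. The permutations treat the 8 boars as exchangeable, although 4 are full brothers on 1 slide. High correlations were also common between genes: 10.3% of named probes of other genes had r of at least 0.9 with SMAD4 A_72_P146796. These p-values therefore show nothing particular to probes of the same gene.

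**Figure D3:**
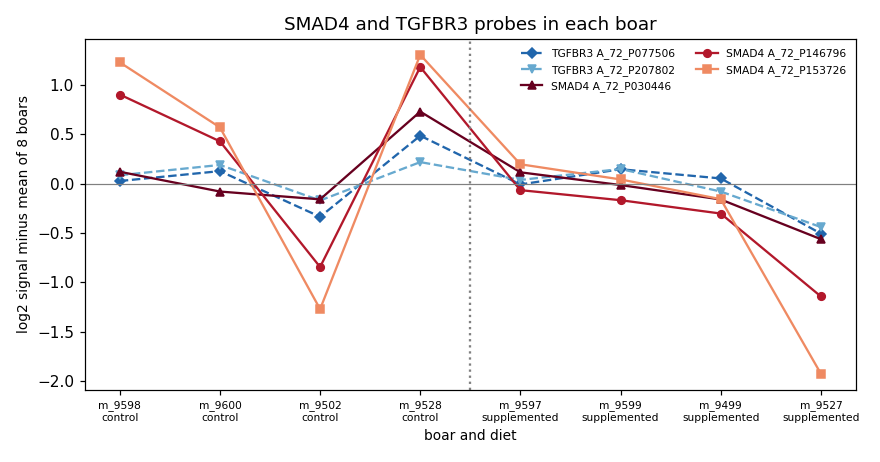
Log2 signal of the SMAD4 probes (solid lines) and the TGFBR3 probes (dashed lines) in each boar, minus the mean of that probe over the 8 boars. The dotted line parts the control boars on the left from the supplemented boars on the right, lines join the points of 1 probe only to guide the eye, and all 5 probes were highest in the control boar m_9528 and lowest in the supplemented boar m_9527.

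These profiles were shared with many other probes. The first principal component of all present probes held 53.2% of the variance, with scores of 0.610 in m_9528, 0.358 in m_9598, 0.0686 in m_9600, 0.0406 in m_9597, 0.000546 in m_9599, -0.119 in m_9499, -0.380 in m_9502 and -0.579 in m_9527. The ends of this axis were thus a control boar and a supplemented boar, and the control boar m_9502 lay nearer to the end of m_9527. The axis also ran with array brightness at its ends. Before normalization the median spot signal was highest in m_9598 (192.5) and m_9528 (174) and lowest in m_9502 (116) and m_9527 (108). In the boars between, it was 129.5 in m_9597, 137 in m_9600, 158 in m_9499 and 164 in m_9599. The part of array signal in this axis was not tested. Over 8 boars the scores had an r of 0.98 with SMAD4 A_72_P146796, 0.97 with A_72_P153726, 0.92 with A_72_P030446, and 0.91 and 0.87 with the TGFBR3 probes. For TGFB1 and BMPR1B r was -0.79 and -0.69, and for SMAD3, TGFB3 and TGFBR1 it lay between -0.13 and 0.20. The correlations describe probes that share 8 arrays, and their part in the diet differences was not tested.

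The named probes of other genes with the profile most like SMAD4 A_72_P146796 were those of SCAMP1 (A_72_P223522, r = 0.997 over 8 boars), a membrane protein of secretory vesicles, NUS1 (A_72_P370513, r = 0.995), a subunit of the enzyme that makes dolichol, and MARCH6 (A_72_P227562, r = 0.993), a ubiquitin ligase of the endoplasmic reticulum. They were followed by PPP2CA (A_72_P343478, r = 0.991), a catalytic subunit of protein phosphatase 2A, and CTNNB1 (A_72_P035751, r = 0.991), which encodes beta-catenin. Their diet differences were -0.53, -0.60, -0.43, -0.62 and -0.66, each with an adjusted limma P of 0.840. Such closeness was common: 300 of 2915 named probes compared (10.3%) had an r of at least 0.9 with this SMAD4 probe, and the median size of r was 0.638.

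Around the members, a wider list of 129 pathway genes was read, of which 28 had a present probe, 48 probes in all. The limma P was under 0.05 for 7 of the 48 probes, with the supplemented mean below the control mean in all 7, and the adjusted P was under 0.05 for none. Of these 7, 6 were named only by the study's annotated probe list. That list was chosen by the diet difference in these same boars, so it is not independent evidence of a direction. Among the 41 probes named by accession 1 had a P under 0.05, where 1.86% of all present probes had one. The median difference of the 48 probes was -0.01, against -0.003 over all present probes, and 23 of them were higher.

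The other ligands (AMH, BMP15, BMP4, BMP7, GDF9, INHA, INHBA and MSTN, 12 probes) had 0 probes with a P under 0.05 and differences of -0.23 to 0.19. Both ends of that range were probes of BMP4, a bone morphogenetic protein. The 3 probes of AMH, the Sertoli cell hormone that makes the Müllerian ducts regress, differed by -0.15, 0.08 and 0.16. Those of INHA, the alpha subunit of inhibin, differed by -0.03 and -0.08, and that of INHBA, a subunit of activin A, by 0.06. For the other receptors there were 2 probes, neither with a P under 0.05: ACVR2B, a type II receptor for activins, differed by 0.18, and ENG or endoglin, a coreceptor of endothelial cells, by 0.53 (SE 0.35, limma's adjusted P = 0.840).

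The other SMADs with a probe were SMAD1 and SMAD9, the receptor-regulated SMADs of the bone morphogenetic protein branch. All 5 of their probes had lower means on the supplemented diet, 4 of them with a P under 0.05 and each of those 4 named by the annotated probe list alone. Over all present probes 1.86% had a P under 0.05. SMAD9 was read by 3 probes of 60 bases, and the first 30 bases of each are shown to show how they differ.
SMAD9 A_72_P383658: gctactactgtcacctcgtgtaatgactag
SMAD9 A_72_P337238: ccttcaaatgcacacttacactgttatctg
SMAD9 A_72_P428914: tcaaaaaatacatgattaaagtgggtacat
The sequences are those of the annotated probe list, 5′ to 3′, and no pair of them shared a run of 12 bases, read on the same strand over all 60 bases.

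SMAD9 A_72_P383658 had log2 signals of 10.14, 10.16, 9.44 and 10.18 in the supplemented and 11.24, 10.69, 10.66 and 11.71 in the control boars. All control boars lay above all supplemented boars. The difference was -1.10 (SE 0.27, unadjusted limma P of 0.00273, adjusted P = 0.840). It was -0.81 in the brothers and -1.38 in the other boars. Probe A_72_P337238 read 8.06, 8.26, 7.94 and 7.93 against 8.47, 8.67, 8.91 and 10.02, a difference of -0.97 (SE 0.30, unadjusted limma P of 0.0104, adjusted P = 0.840), and A_72_P428914 read 7.52, 7.52, 6.90 and 7.69 against 7.78, 7.92, 8.22 and 8.29, a difference of -0.64 (SE 0.21, unadjusted limma P of 0.0115, adjusted P = 0.840). The diets were separate in both of these probes too. In the brothers alone these differences were -0.41 and -0.33, with an unadjusted limma P of 0.0510 and 0.0743, and in the other boars -1.53 and -0.96. Without the control boar m_9528 the difference of A_72_P337238 was -0.64. Since the probes were listed for their diet difference in these boars, their P-values and their separation describe that choice and are no support for it.

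The listed SMAD1 probe A_72_P025571 lay at 9.15 to 9.48 in the supplemented and 9.46 to 9.82 in the control boars (difference -0.38, SE 0.15, unadjusted limma P of 0.0281, adjusted P = 0.840). The groups overlapped by a narrow margin, and the unadjusted P was 0.0596 to 0.0788 under 4 other settings (both scalings to the 75th percentile, the SD filter, and a trend with robust variances). Its second probe, A_72_P223337, which the accession names, differed by -0.32 (SE 0.23, limma's adjusted P = 0.840).

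Among the extracellular regulators (DCN, FBN1, FST, ITGAV, ITGB6 and ITGB8, 12 probes) the 3 probes of ITGAV had a P under 0.05, all lower, and the other 9 did not. Of the 10 probes named by accession 1 had a P under 0.05, where 1.86% of all present probes had one. ITGAV is the alpha subunit of the integrins that free latent TGF-beta from its complex. Probe A_72_P165441, named by its accession, read 10.28, 10.34, 10.84 and 9.24 in the supplemented and 11.32, 11.00, 10.29 and 11.94 in the control boars. As with SMAD4, the control boar m_9502 lay among the supplemented boars. The difference was -0.96 (SE 0.40, unadjusted limma P of 0.0382, adjusted P = 0.840), and with the same block its P was 0.0518.

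The listed ITGAV probes A_72_P051521 and A_72_P257667 differed by -0.62 (SE 0.20, unadjusted limma P of 0.0112, adjusted P = 0.840) and -0.67 (SE 0.24, unadjusted limma P of 0.0196, adjusted P = 0.840). In both, m_9502 was the lowest control boar. Since these probes were listed for their diet difference in these boars, their P-values and direction describe that choice and are no support for it. The beta subunits ITGB6 and ITGB8, which pair with ITGAV in latent TGF-beta activation, differed by 0.02 to 0.16 with no P under 0.05. The 3 probes of DCN or decorin, a matrix proteoglycan that binds TGF-beta, differed by -0.12, -0.15 and -0.29. Those of FST or follistatin, which binds activin, differed by 0.12 and 0.37.

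**Figure D4:**
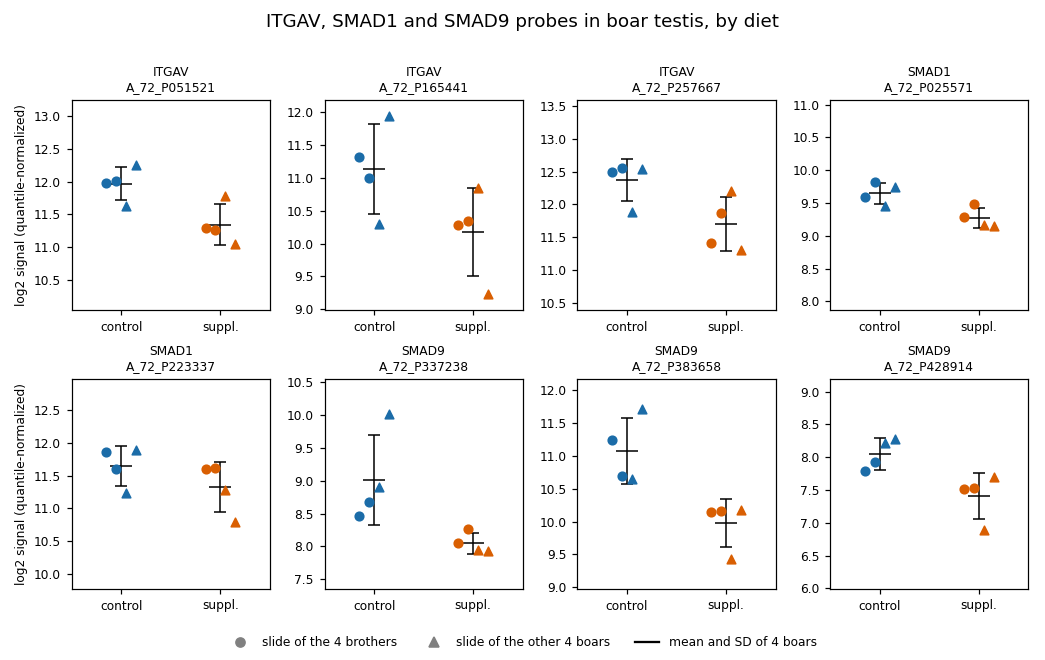
Quantile-normalized log2 signal of the ITGAV, SMAD1 and SMAD9 probes in each boar, control diet in blue and supplemented diet in orange, with circles for the slide of the 4 brothers, triangles for the slide of the other 4 boars, and lines for the mean and SD of 4 boars. All 8 supplemented means are below the control means, and the diets are fully separate in the 3 SMAD9 probes. The SMAD9 probes, SMAD1 A_72_P025571 and ITGAV A_72_P051521 and A_72_P257667 were listed for their diet difference in these boars.

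The intracellular regulators (FKBP1A, TRAF6 and USP9X, 5 probes) had 0 probes with a P under 0.05 and differences of -0.29 to 0.31. USP9X, which removes ubiquitin from SMAD4, was the only gene here from the annotated probe list. Its probe A_72_P193607 lay between 7.06 and 7.19 in the supplemented and between 6.53 and 6.97 in the control boars, without overlap. The difference was 0.31 (SE 0.14, unadjusted limma P of 0.0562, adjusted P = 0.840). Groups without overlap were found in 1.13% of all present probes. Since this probe too was listed for its diet difference in these boars, its separation describes that choice and is no support for it.

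The response genes, which TGF-beta or bone morphogenetic proteins are known to switch in many cells (among them CDKN2B, CTGF, ID2, MYC, TIMP1 and TPM1, 12 probes over the list), had 0 probes with a P under 0.05, and 7 of 12 were higher. The probes of TPM1 differed by -0.12 to 0.51, the largest being A_72_P179531 (SE 0.27, limma's adjusted P = 0.840). CTGF, a matrix-associated growth factor, differed by -0.23 (SE 0.32), and the 2 probes of ID2, a target of bone morphogenetic proteins, by -0.14 and 0.08. MYC, a growth-promoting transcription factor, differed by -0.12 (SE 0.31), and TIMP1, an inhibitor of matrix metalloproteinases, by 0.04 (SE 0.39).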

How the data were processed

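Testis RNA of 8 boars, 4 per diet, was measured on Agilent one-colour arrays. The authors deposited the scanner output of each array, with the median intensity of each spot, its local background intensity and its flags, written by Feature Extraction 10.5.1.1 per the file headers and not normalized. A deposited table further gives log2 values of 35258 probes, which are the quantile-normalized median intensities of the probes present on 3 of 4 arrays of a diet (largest difference from the scanner-file log2 values 0.056).

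The log2 median intensities of 43803 spots that are not controls were quantile-normalized without background subtraction, and spots of 1 probe were averaged. A probe was present if 2 or more of the 4 arrays of 1 diet had its signal above 25 and flagged as well above background, which held for 36982 of 43603 probes. All 10 member probes passed, well above background on all 8 arrays, with 1 spot each. The diet comparison was made in limma 3.58.1 (R 4.3.3; lmFit, eBayes, two-sided), adjusted by Benjamini-Hochberg over all present probes, without a block. The code was tested on simulated data. Exact permutation tests used scipy 1.17.1, and figures matplotlib 3.10.9 in Python 3.11.15.

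Of 3239 probes with a RefSeq accession, 2628 matched the RefSeq gene table (Sscrofa11.1, used for names only), and 3064 had a name with the study's annotated probe list. The arrays name no genome build, so no positions are given. Groups came from the deposited labels, and the litter from the study's methods. The other 4 boars come from further litters, and which boar belongs to which is not given in the sources used here. The number of boars limits the precision. The P-values set each difference against the spread between these boars, taken as independent although 4 of them are full brothers. The members, the pathway and marker lists and the tests were chosen with earlier results of these data known.

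The named probes are those of the members, the pathway probes with a limma P under 0.05 or in the annotated probe list with the other probes of their genes, and the 5 named probes most like the member of smallest P. The examples within each pathway group were chosen after their values were seen, and 1 gene of the response list is counted but not reported here. Alternatives were other signal columns, scalings, filters and tests, the brothers and their slide against the other boars as a block, the brothers alone, the other 4 boars alone, and each boar left out. Normexp with an offset of 50 was run on the median signal.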

Additional observations from a re-analysis of the deposited data

Results flagged for a closer look

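The diet difference of TGFB3 (A_72_P223537) was opposite in sign in the 4 brothers and the other 4 boars, and the interaction was -1.55 on the log2 scale (unadjusted limma P of 0.0775, adjusted P = 1), so this difference did not pass the test. In 38 groups of 4 boars, 3 had a boar far from the other 3, where chance gives about 1 in 20 (1.9 groups). SMAD4 A_72_P153726 was 7.33 in the supplemented boar m_9527 and 9.10 to 9.45 in the other supplemented boars. ITGAV A_72_P257667 was 11.89 in the control boar m_9502 and 12.50 to 12.56 in the other control boars. SMAD9 A_72_P383658 was 9.44 in the supplemented boar m_9499 and 10.14 to 10.18 in the other supplemented boars. The causes were not tested.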

How the results depend on the processing

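No alternative gave an adjusted P under 0.05 for any of the 19 probes followed, and 409 of 418 probe values kept their direction. All 9 reversals were in member probes. The other probes followed are of genes in the annotated probe list, which was chosen by the diet difference in these boars. Their kept direction is therefore no support, and the settings share boars. None of the 9 reversals came from another signal column, scaling, filter or test. In the brothers alone TGFB3 was -0.36, TGFBR1 0.42 and SMAD4 A_72_P030446 0.030, and in the other 4 boars alone SMAD3 was 0.29. With 1 boar left out TGFB3 ran from -0.11 (without m_9499) to 0.68, TGFBR1 from -0.55 to 0.055 (0.055 and 0.047 without m_9502 and m_9527), and SMAD3 from -0.15 to 0.086 (0.056 without m_9597, 0.086 without m_9600).

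The number of member probes with a P under 0.05, 0 with all boars, was 3 when arrays were weighted, 2 in the brothers alone, and 0 to 2 with 1 boar left out, of which 1 without m_9600 and 2 without m_9502. The number whose diets did not overlap was 4 in the brothers alone, 2 in the other boars alone, where 2 boars per diet separate easily, and 0 to 2 with 1 boar left out (2 without m_9502). The share of all present probes that separate at these settings is not given here, so these counts show nothing particular to the members. For the pathway list, 7 became 12 when arrays were weighted, 4 in the other boars alone, 4 to 11 with 1 boar left out (4 without m_9597 or m_9527, 11 without m_9502), and 1 for probes named by accession, an alternative chosen after seeing the data.

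Over all present probes, 689 became 5830 with array weights, 2381 in the brothers alone, 359 in the others alone, and 339 to 6155 with 1 boar left out (339 without m_9528, 369 without m_9598, 438 without m_9527, 1213 without m_9600, 6155 without m_9502). The cause was not tested. With the brothers and their slide as a block, no member changed its side of 0.05. Replicate numbers follow the order of deposit, so no paired analysis was possible because they pair no boars. The TGFBR3 probes, at 1.58 to 4.43 times the local background, are the least certain of the members.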
